A study of Mus musculus with 12 samples.

Results

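Glutathione synthesis, reduction and transferase genes were followed in the mouse lens across 4 *Trpm3* genotypes. The 10 genes were chosen by name from the 55487 gene identifiers of the count table, and all 10 were found once. They are the mu-class transferases *Gstm1*, *Gstm2* and *Gstm5*, the alpha-class *Gsta4*, the pi-class *Gstp1*, the ligase subunit genes *Gclc* and *Gclm*, the synthetase gene *Gss*, the reductase gene *Gsr* and the peroxidase gene *Gpx1*. RNA of whole lenses was sequenced 7 days after birth (P7), with 3 libraries from each genotype and 12 in all. Wild-type (WT) lenses were compared with *Trpm3*-KO lenses, from a line made by homologous recombination, and with lenses in which a knocked-in isoleucine-to-methionine substitution of the TRPM3 cation channel was present on 1 allele (*Trpm3*-I/M) or on both (*Trpm3*-M/M). The genotypes are written KO, I/M and M/M from here on. The series describes each library as RNA of 4 male and 4 female lenses. The study calls the 3 libraries of a genotype biological replicates, and the labels do not tie them to animals, so p-values measure the spread between these libraries.

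Glutathione is made from glutamate, cysteine and glycine in a pair of steps. Glutamate-cysteine ligase, built from a catalytic subunit (GCLC) and a modifier subunit (GCLM), joins glutamate to cysteine, and glutathione synthetase (GSS) adds glycine. Glutathione peroxidase 1 (GPX1) spends reduced glutathione to remove hydrogen peroxide, glutathione reductase (GSR) restores it with NADPH, and the transferases couple it to reactive electrophiles. The lens keeps a high concentration of reduced glutathione, which protects the long-lived proteins of its fiber cells from oxidation. Several of these genes, *Gclc* and *Gclm* among them, are textbook targets of the transcription factor NRF2, which is held back by KEAP1 in unstressed cells.

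The 3 mu-class genes lie together on chromosome 3 of GRCm38, where *Gstm5* occupies 107895821 to 107898686 on the forward strand, *Gstm2* occupies 107981702 to 107986453 and *Gstm1* occupies 108012255 to 108017973, both on the reverse strand. *Gclm* lies on the forward strand of the same chromosome, from 122245557 to 122270732. *Gclc* (77754535 to 77794485) and *Gsta4* (78182774 to 78209349) are both on the forward strand of chromosome 9, and *Gpx1* lies further along it, from 108338903 to 108340343. *Gstp1* is on the reverse strand of chromosome 19 (4035407 to 4037985), *Gss* on the reverse strand of chromosome 2 (155563181 to 155592810) and *Gsr* on the forward strand of chromosome 8 (33652523 to 33698163). All 10 are annotated as protein coding.

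Promoter windows of RefSeq (build GRCm38.p6), from 250 bases before to 50 bases after a transcription start, were matched for 7 of the 10 genes, with 8 windows because *Gstm1* has 2. They were searched on both strands for the core of the antioxidant response element, TGACNNNGC, the 9-letter motif that the transcription factor NRF2 binds with small MAF partners. The windows of *Gclm*, *Gstm5*, *Gstm1*, *Gstm2* and *Gstp1* are shown because these genes passed the test in both mutant genotypes below, and capitals mark the motif. They are *Gclm* at chr3:122245307-122245606 (forward), *Gstm5* at chr3:107895604-107895903 (forward), the more downstream window of *Gstm1* at chr3:108017769-108018068 (reverse), *Gstm2* at chr3:107986371-107986670 (reverse) and *Gstp1* at chr19:4037863-4038162 (reverse), each written 5′ to 3′ on the strand of its gene.
Gclm: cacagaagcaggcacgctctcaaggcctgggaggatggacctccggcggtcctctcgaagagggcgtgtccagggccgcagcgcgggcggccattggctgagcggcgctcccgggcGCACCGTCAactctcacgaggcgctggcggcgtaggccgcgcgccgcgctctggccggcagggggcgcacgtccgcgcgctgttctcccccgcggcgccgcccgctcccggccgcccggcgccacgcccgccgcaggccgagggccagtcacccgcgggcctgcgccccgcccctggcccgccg
Gstm5: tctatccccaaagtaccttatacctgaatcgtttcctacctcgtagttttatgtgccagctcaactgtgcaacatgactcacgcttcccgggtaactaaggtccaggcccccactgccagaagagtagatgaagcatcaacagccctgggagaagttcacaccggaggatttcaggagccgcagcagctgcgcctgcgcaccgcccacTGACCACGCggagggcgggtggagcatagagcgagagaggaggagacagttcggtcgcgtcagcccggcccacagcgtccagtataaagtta
Gstm1: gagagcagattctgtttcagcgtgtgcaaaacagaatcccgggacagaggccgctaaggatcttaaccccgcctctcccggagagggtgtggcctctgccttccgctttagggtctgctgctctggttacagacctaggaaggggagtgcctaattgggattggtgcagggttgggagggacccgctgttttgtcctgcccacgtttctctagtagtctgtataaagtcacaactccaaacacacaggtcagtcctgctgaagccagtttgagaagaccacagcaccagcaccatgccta
Gstm2: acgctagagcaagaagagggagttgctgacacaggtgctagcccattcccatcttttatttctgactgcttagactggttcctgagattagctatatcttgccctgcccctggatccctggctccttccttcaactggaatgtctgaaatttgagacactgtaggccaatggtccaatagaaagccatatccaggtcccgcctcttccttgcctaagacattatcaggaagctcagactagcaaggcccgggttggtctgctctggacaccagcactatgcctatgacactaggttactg
Gstp1: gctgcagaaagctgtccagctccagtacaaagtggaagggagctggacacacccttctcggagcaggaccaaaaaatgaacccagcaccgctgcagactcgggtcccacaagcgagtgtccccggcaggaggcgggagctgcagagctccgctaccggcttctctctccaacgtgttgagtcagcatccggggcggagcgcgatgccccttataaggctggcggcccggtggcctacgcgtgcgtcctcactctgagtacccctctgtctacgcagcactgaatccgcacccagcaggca
The motif was found in 2 of the 8 windows, those of *Gclm*, on the opposite strand with its first printed base at position 117 of the window, and of *Gstm5*, on the same strand at position 209. Of all 32851 windows of 300 bases, 12.4% held it. The motif stood in the window of a gene that rose in M/M lenses (*Gclm*) and in that of a gene that fell (*Gstm5*). Its absence from the other windows says only that these letters were not within them.

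Between 56162169 and 82090198 reads were counted on genes per library, and single genes among the 10 held from 112 counts upward, so the spread between libraries, not counting error, limited most of their values. Levels are given as CPM, a gene's count relative to the size of its library, corrected by TMM factors that set the typical gene equal between libraries. Differences are therefore relative to the typical gene. No spike-in RNA was used here, and scaling by library size only lifted the median log2 fold change against WT to 0.50 for M/M, 0.20 for I/M and 0.05 for KO. *Trpm3* itself stood at 269 ± 17.3 CPM in WT, 95.3 ± 5.02 in KO, 387 ± 23.4 in I/M and 475 ± 8.02 in M/M libraries (SD, n = 3). A gene was tested when it reached a CPM of at least 5 in at least 3 libraries, which 8984 genes did, including all 10 glutathione genes. All were fitted together by the quasi-likelihood test of edgeR, and p-values were adjusted over all tested genes (Benjamini–Hochberg). In bulk lens RNA, fewer cells of a type and less RNA per cell cannot be told apart.

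Per kilobase of exon, the WT levels of the 10 genes spanned from 172 ± 6.36 CPM per kb for *Gstm1* to 3.59 ± 0.179 for *Gsr* (SD, n = 3). *Gpx1* followed *Gstm1* at 152 ± 6.53 CPM per kb and *Gstp1* came next at 146 ± 12.3, and these neighbours overlapped between libraries. *Gstm5* stood at 72.9 ± 4.11 CPM per kb, *Gss* at 44.2 ± 0.858, *Gclc* at 18.7 ± 2.89 and *Gstm2* at 12.9 ± 0.749, with no overlap between neighbours in this order. *Gsta4* (5.86 ± 2.14 CPM per kb) and *Gclm* (4.86 ± 0.0611) overlapped, and *Gclm* stayed above *Gsr*. Among the 8980 tested genes with a length, *Gstm1* stood at the 98.5th percentile of WT levels and *Gsr* at the 51.8th. The order was another one in M/M lenses, where *Gstp1* led at 198 ± 14.6 CPM per kb, *Gstm1* stood behind *Gpx1*, *Gstm5* and *Gss* at 27.2 ± 1.31 and *Gstm2* was last at 0.967 ± 0.0555.

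**Figure D1:**
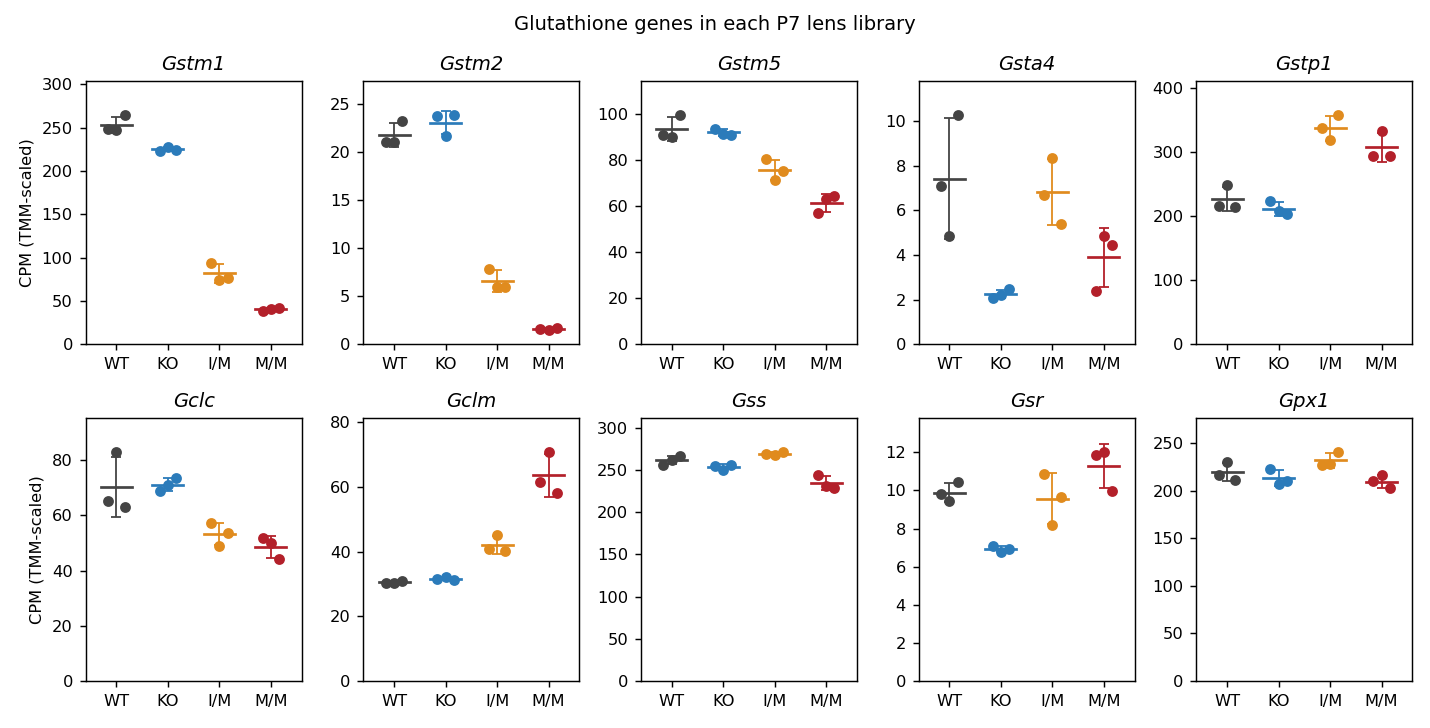
Each panel plots 1 gene, with TMM-scaled CPM on a linear y axis from 0 and the 4 genotypes on the x axis. Points are libraries, horizontal bars are means and error bars are the SD (n = 3); *Gstm1* and *Gstm2* step down from WT to I/M to M/M, *Gclm* steps up, and *Gsta4* and *Gsr* are lowest in KO.

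Of the 10 genes, *Gstm2* and *Gstm1* had the largest fold changes in M/M and in I/M lenses. Both encode mu-class transferases, which conjugate glutathione to electrophiles in the cytosol. *Gstm2* stood at 21.0, 21.0 and 23.2 CPM in the WT libraries, 23.7, 21.6 and 23.8 in KO, 7.87, 5.92 and 5.98 in I/M, and 1.63, 1.53 and 1.72 in M/M. The WT and KO libraries overlapped, the I/M libraries all lay below them, and the M/M libraries lay lower still. Against WT, *Gstm2* fell by 3.74 on the log2 scale in M/M lenses, a 13.4-fold difference (SE 0.11, edgeR adjusted p = 1.36e-11). It fell by 1.72 in I/M lenses (SE 0.09, edgeR adjusted p = 2.78e-08). The M/M value still rested on 130 to 152 counts per library, against 1001 to 1170 in WT. Only WT, KO and I/M libraries carried *Gstm2* past the filter on low values, as no M/M library reached the minimum CPM.

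*Gstm1*, the most abundant of the 10 per kilobase in WT, stood at 249, 247 and 264 CPM in WT, 223, 227 and 224 in KO, 93.8, 74.4 and 76.8 in I/M, and 38.1, 40.3 and 42.0 in M/M libraries. No 2 genotypes overlapped. It fell by 2.66 on the log2 scale in M/M lenses (6.31-fold, SE 0.08, edgeR adjusted p = 1.36e-11) and by 1.63 in I/M lenses (3.10-fold, SE 0.08, edgeR adjusted p = 4.48e-09). The KO libraries lay below every WT library too, but the difference of −0.17 did not pass (SE 0.07, edgeR adjusted p = 0.23).

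*Gstm5* changed least of the 3. Its CPM was 90.6, 89.8 and 99.3 in WT, 93.4, 91.3 and 90.9 in KO, 80.2, 71.3 and 75.3 in I/M and 57.0, 62.8 and 64.4 in M/M libraries. The 2 mutant genotypes lay below WT in every library and did not overlap each other. It fell by 0.60 on the log2 scale in M/M (SE 0.06, edgeR adjusted p = 1.31e-06) and by 0.30 in I/M (SE 0.06, edgeR adjusted p = 0.00168), but with library size only these values were −0.09 and −0.10 and passed no test (edgeR adjusted p = 0.257 and 0.254).

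Ratios within a library do not depend on the scaling. The count of *Gstm5* per count of *Gstm1* was 0.368 ± 0.00698 in WT, 0.409 ± 0.00869 in KO, 0.931 ± 0.0669 in I/M and 1.53 ± 0.0329 in M/M (SD, n = 3). That of *Gstm2* per *Gstm1* was 0.0858 ± 0.00181 in WT, 0.103 ± 0.00633 in KO, 0.0805 ± 0.00312 in I/M and 0.0405 ± 0.00235 in M/M. *Gstm2* thus fell more steeply than *Gstm1* in M/M lenses, while in I/M lenses the ratio lay just below WT. No genotype overlapped WT in either ratio (two-sided exact permutation test, p = 0.1 for each genotype, the smallest p that 3 libraries against 3 allow).

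Marker genes of lens and other cell types moved with these genotypes too. The summed CPM of 13 lens fiber markers lay between 287358 and 317397 in WT, 283097 and 311630 in KO, 237084 and 248778 in I/M, and 185539 and 196123 in M/M libraries, and 12 of the 13 fell in M/M. Most of this sum was crystallin RNA, led by *Cryaa* at a mean of 170057 CPM in WT and 119254 in M/M. *Lgsn* averaged 30.7 CPM in WT and 126 in KO, but 0 of the 13 passed the test in KO. The 9 lens epithelium markers other than *Trpm3* summed to 844 to 888 CPM in WT, 805 to 823 in KO, 791 to 822 in I/M and 761 to 784 in M/M. The members of this list went both ways, with *Foxe3* at a mean of 90.8 CPM in WT and 19.2 in M/M, *Slc38a3* at 55.4 and 17.2, *Gja1* at 40.2 and 20.6, *Npnt* at 94.0 and 125, and *Pdpn* at 20.6 and 34.1. Vascular endothelium markers (8 genes) rose from 5.80 to 8.23 CPM in WT to a range of 51.2 to 58.8 in M/M, macrophage markers (10 genes) stood at 0.476 to 0.649 against 10.7 to 21.7, and pericyte and fibroblast markers (8 genes) at 77.1 to 93.7 against 269 to 410. Red blood cell markers (5 genes) summed to 1.22 to 11.9 CPM in WT and 12.4 to 15.0 in M/M, photoreceptor markers (8 genes) to 0.693 to 0.912 and 1.58 to 4.60, and Müller glia and astrocyte markers (6 genes) to 36.7 to 38.4 and 50.7 to 53.8. The glial list also went both ways. Its rise was mostly *Glul*, at a mean of 7.29 CPM in WT and 21.3 in M/M, and *Kcnj10*, at 2.78 and 6.17. *Rlbp1* (0.188 and 0.757) and *Slc1a3* (0.0528 and 0.219) rose at low levels, while *Gfap* (20.9 and 18.3) and *Aqp4* (6.33 and 5.54) were lower. Pigmented cell markers (6 genes, 3.13 to 3.71 and 2.95 to 3.52 CPM) and ciliary non-pigmented epithelium markers (5 genes, 4.54 to 6.46 and 4.197 to 7.20 CPM) overlapped between these genotypes. In I/M libraries, however, the pigmented cell sum of 5.35 to 6.22 CPM lay above every WT library. That rise lay almost wholly in *Tyrp1*, at a mean of 2.25 CPM in WT and 4.65 in I/M, while *Pmel* stood at 0.826 and 0.838. The ciliary sum lay below every WT library both in I/M (2.18 to 2.44 CPM) and in KO (3.70 to 4.15 CPM). It was mostly *Col9a1*, at a mean of 5.09 CPM in WT, 3.54 in KO, 1.99 in I/M and 2.63 in M/M. The other ciliary markers were all higher in M/M than in WT, the highest being *Optc* (0.159 CPM in WT and 1.33 in M/M). In KO libraries the endothelium, macrophage and pericyte and fibroblast sums were 6.07 to 6.80, 0.430 to 0.452 and 69.5 to 74.9 CPM, and in I/M libraries they were 18.0 to 25.4, 1.07 to 1.23 and at most 127 CPM, the last above every WT library. No count of the macrophage marker *C1qc* was found in KO, and none of the fibroblast marker *Lum* in WT or KO libraries. Their part in the values of the 10 glutathione genes was not tested.

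The pi-class gene *Gstp1*, whose enzyme conjugates glutathione to a broad range of electrophiles, went the other way. It stood at 216, 248 and 214 CPM in WT, 224, 208 and 203 in KO, 337, 318 and 357 in I/M, and 294, 333 and 294 in M/M libraries. The WT and KO libraries overlapped, as did the 2 mutant genotypes, and every mutant library lay above every WT library. *Gstp1* rose by 0.58 on the log2 scale in I/M (1.49-fold, SE 0.07, edgeR adjusted p = 3.8e-05) and by 0.44 in M/M (1.36-fold, SE 0.07, edgeR adjusted p = 0.000113). Its reads are shared with near-identical copies: 25.1% of the distinct 100-base stretches in its annotated transcripts also occur in transcripts of *Gstp2* or the pseudogene *Gstp-ps*, and *Gstp1* held 77.2 to 80.6% of the counts of that group in each library. With the group summed, the log2 fold change was 0.49 in M/M and 0.60 in I/M lenses.

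The alpha-class gene *Gsta4*, whose enzyme is known for detoxifying the lipid peroxidation product 4-hydroxynonenal, was the most variable of the 10 between WT libraries. Its CPM was 7.12, 4.87 and 10.3 in WT, 2.09, 2.19 and 2.46 in KO, 6.71, 8.34 and 5.39 in I/M, and 2.39, 4.87 and 4.45 in M/M libraries. All KO libraries lay below all WT libraries, the I/M libraries lay within the WT range, and the highest M/M library came close to the lowest WT library. Only WT, I/M and M/M libraries carried it past the filter on low values. *Gsta4* fell by 1.72 on the log2 scale in KO lenses (3.31-fold, SE 0.30, edgeR adjusted p = 0.0039). The fall of 0.92 in M/M lenses (SE 0.27, edgeR adjusted p = 0.00935) did not pass without WT replicate 3 (−0.62, edgeR adjusted p = 0.0617), nor with library size only (−0.42, edgeR adjusted p = 0.169). The difference in I/M lenses was −0.12 (95% interval −0.69 to 0.45, edgeR adjusted p = 0.762), and it turned positive with library size only, at 0.07.

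Across all glutathione transferase genes of the table, the mu class held 57.7% ± 2.04 of the transferase counts in WT, 57.6% ± 1.07 in KO, 30.3% ± 1.93 in I/M and 23.1% ± 1.32 in M/M libraries (SD, n = 3). The pi class held 36.6% ± 2.61, 37.2% ± 1.06, 63.3% ± 2.20 and 68.9% ± 1.28 in the same order. The mu class thus led the transferase counts in WT and KO lenses, and the pi class led in both mutants. The alpha class held 1.09% ± 0.37 in WT and 0.377% ± 0.0368 in KO libraries. These shares are of counts, not corrected for gene length.

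**Figure D2:**
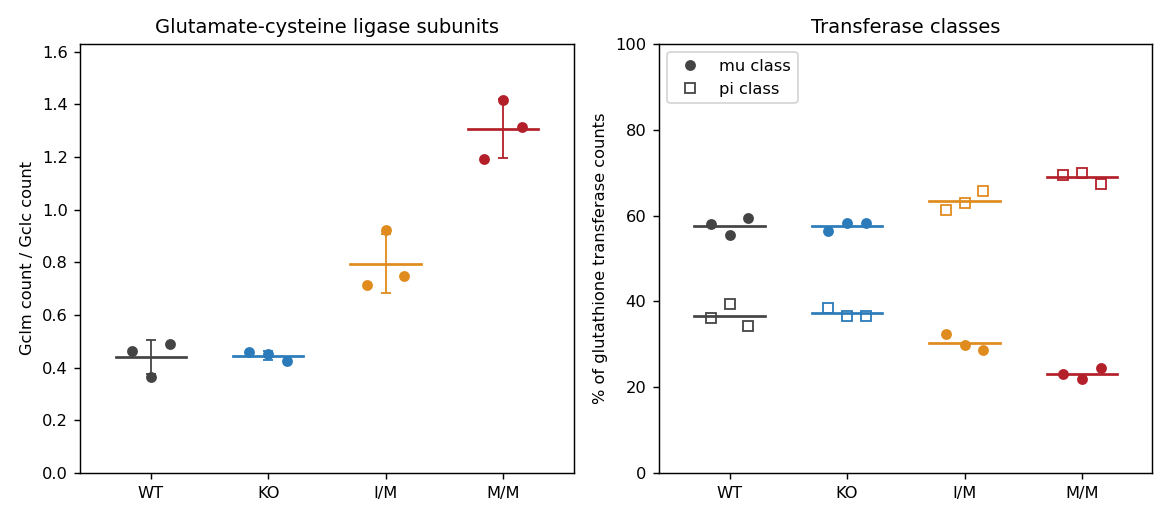
The left panel plots the *Gclm* count over the *Gclc* count in each library by genotype, with mean and SD (n = 3), and the right panel plots the percentage of all transferase counts held by mu-class (filled circles) and pi-class (open squares) genes, with bars at the means. The subunit ratio is about 0.44 in WT and KO and 1.31 in M/M, and the classes trade places between WT and both mutants.

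The subunits of glutamate-cysteine ligase, which catalyses the limiting step of glutathione synthesis, moved in opposite directions. *Gclm* stood at 30.3, 30.4 and 31.0 CPM in WT, 31.6, 32.0 and 31.3 in KO, 40.8, 45.3 and 40.1 in I/M, and 61.6, 70.8 and 58.2 in M/M libraries. Both mutant genotypes lay above every WT and KO library and did not overlap each other. *Gclm* rose by 1.06 on the log2 scale in M/M lenses (2.08-fold, SE 0.07, edgeR adjusted p = 2.12e-08) and by 0.46 in I/M lenses (1.38-fold, SE 0.07, edgeR adjusted p = 0.000179).

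*Gclc* stood at 65.3, 83.0 and 63.1 CPM in WT, 68.9, 71.0 and 73.5 in KO, 57.2, 49.1 and 53.6 in I/M, and 51.7, 49.9 and 44.3 in M/M libraries. Every mutant library lay below every WT library, although WT replicate 2 stood well above the others. *Gclc* fell by 0.54 on the log2 scale in M/M (SE 0.09, edgeR adjusted p = 0.000262) and by 0.40 in I/M (SE 0.09, edgeR adjusted p = 0.00555). With library size only its values were −0.02 and −0.20, neither past the test (edgeR adjusted p = 0.811 and 0.055). The *Gclm* count over the *Gclc* count, which no scaling touches, was 0.440 ± 0.0659 in WT, 0.445 ± 0.0174 in KO, 0.795 ± 0.112 in I/M and 1.31 ± 0.113 in M/M libraries (SD, n = 3). The ratio did not overlap WT in either mutant (exact permutation test, two-sided, p = 0.1, as small as it can be), while KO overlapped it (same exact test, p = 1.0).

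The remaining genes finish, spend or restore glutathione. *Gss* stood at 257, 262 and 267 CPM in WT, 255, 251 and 256 in KO, 269, 268 and 271 in I/M, and 245, 231 and 229 in M/M libraries. The M/M libraries lay below all the rest, by a small margin. Its log2 fold change in M/M passed at −0.16 (SE 0.04, edgeR adjusted p = 0.00338), but with library size only it was 0.35 and passed in the opposite direction (edgeR adjusted p = 1.09e-05).

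*Gpx1* stood between 203 and 241 CPM in all 12 libraries, with a mean of 219 ± 9.41 in WT, 213 ± 8.48 in KO, 232 ± 7.59 in I/M and 210 ± 6.71 in M/M (SD, n = 3), and every genotype overlapped WT. Its log2 fold change was −0.06 in M/M (95% interval −0.17 to 0.04), 0.08 in I/M (−0.02 to 0.18) and −0.04 in KO (−0.14 to 0.06), none past the test with TMM factors (edgeR adjusted p = 0.258, 0.221 and 0.724). With library size only, the M/M and I/M values were 0.45 and 0.28 and passed (edgeR adjusted p = 6.4e-07 and 0.000232).

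*Gsr* stood at 9.79, 9.45 and 10.4 CPM in WT, 7.10, 6.76 and 6.91 in KO, 10.9, 8.18 and 9.67 in I/M, and 11.9, 12.02 and 9.98 in M/M libraries. The KO libraries lay below all others, and both mutants overlapped WT. *Gsr* fell by 0.51 on the log2 scale in KO lenses (1.43-fold, SE 0.10, edgeR adjusted p = 0.0114), and without KO replicate 2 it just missed the threshold (−0.50, edgeR adjusted p = 0.0569). In M/M lenses its value of 0.19 did not pass (SE 0.10, edgeR adjusted p = 0.108), but it passed at 0.70 with library size only (edgeR adjusted p = 1.82e-05) and at 0.29 without M/M replicate 3 (edgeR adjusted p = 0.0226).

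**Figure D3:**
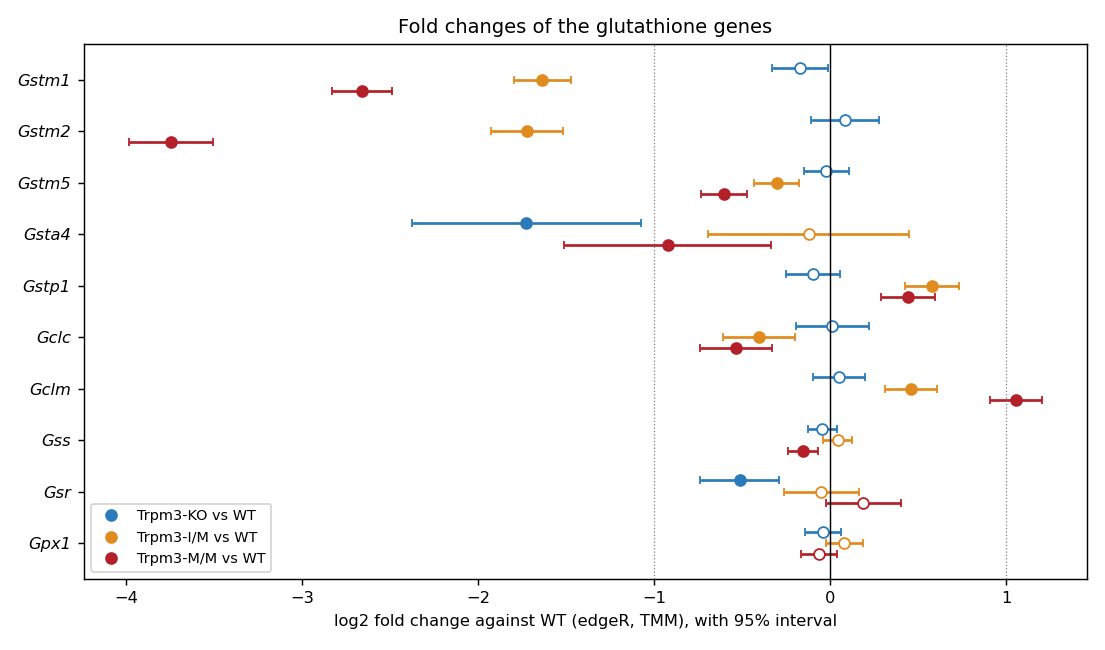
Points give the log2 fold change of each gene against WT in KO (blue), I/M (orange) and M/M (red) lenses, with 95% intervals, a solid line at 0 and dotted lines at 2-fold. Filled points passed an edgeR adjusted p of 0.05, among them *Gstm1* and *Gstm2* in both mutants but not in KO, where *Gsta4* and *Gsr* passed.

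Counted together against WT, 6 of the 10 genes were lower in M/M lenses at an adjusted p of at most 0.05 and 2 were higher, where the test called 31.4% of all tested genes lower and 31.4% higher. With library size only the balance turned, to 2 of the 10 lower (5.51% of all genes) and 5 higher (82%). *Gstm1* and *Gstm2* were also at least 2-fold lower, against 2.53% of all genes, and *Gclm* was at least 2-fold higher, against 6.42%. *Gclm* sat near that threshold, at 0.99 on the log2 scale without M/M replicate 2, and glmTreat, which tests against a change of 2-fold itself, called 2 genes rather than 3. Over the 10 genes the median log2 fold change was −0.35, beside 0.00 over all genes, and with library size only it was 0.17, beside 0.50. In I/M lenses 4 genes were lower (15.3% of all genes) and 2 higher (17.3%), 2 of them at least 2-fold lower (0.746%) and 0 at least 2-fold higher (2.58%). Library size only gave 2 lower (3.95%) and 4 higher (51.9%) there. These comparisons share the WT libraries. In KO lenses 2 genes were lower (2.2% of all genes), *Gsta4* by at least 2-fold (0.334%). None of the 10 was higher there at either threshold by edgeR, where 2.16% of all genes were higher and 0.234% by at least 2-fold, nor by DESeq2 (0 genes) or at an unadjusted edgeR p under 0.05 (0 genes). The call of *Gsta4* was absent when only the WT and KO libraries were fitted, because too few of these libraries then reached the minimum CPM for it to be tested.

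Between the mutants, 6 of the genes were lower in M/M than in I/M lenses (25.7% of all genes) and 1 was higher (25.6%), but with library size only 2 were lower (5.43%) and 4 higher (70.4%). *Gstm2* differed by −2.02 (SE 0.11, edgeR adjusted p = 2.34e-08) and *Gstm1* by −1.02 (SE 0.07, edgeR adjusted p = 1.86e-07), both at least 2-fold lower (1.02% of all genes), and 0 genes were at least 2-fold higher (3.67%). The *Gstm1* difference sat at the fold threshold, and leaving out I/M replicate 1 or M/M replicate 1 left only 1 gene past it. *Gclm* was higher by 0.59 (SE 0.07, edgeR adjusted p = 8.91e-06). *Gstp1* (−0.14, 95% interval −0.29 to 0.02) and *Gclc* (−0.13, 95% interval −0.34 to 0.07) did not pass between the mutants, and both turned positive with library size only, at 0.17 and 0.18, *Gstp1* past the test. *Gstm5* (−0.30), *Gss* (−0.20) and *Gpx1* (−0.15) passed as lower in M/M but also turned positive with library size only, at 0.01, 0.11 and 0.16. The *Gpx1* call was lost without I/M replicate 3, M/M replicate 1 or M/M replicate 3 (edgeR adjusted p up to 0.124). *Gsta4* was the other lower gene (−0.80, edgeR adjusted p = 0.0225), and its call was lost with library size only (−0.49, edgeR adjusted p = 0.119) and without I/M replicate 2 or M/M replicate 1 (edgeR adjusted p = 0.101 and 0.0875).

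Against KO, M/M lenses had 5 of the genes lower (32.4% of all genes) and 4 higher (32.3%), and with library size only 2 lower (6.89%) and 6 higher (78%). *Gstm2* differed by −3.83 (SE 0.11, edgeR adjusted p = 1.16e-11) and *Gstm1* by −2.49 (SE 0.08, edgeR adjusted p = 2.23e-11), and both were at least 2-fold lower (2.94%). *Gclm* was the 1 gene at least 2-fold higher (6.85%), by 1.01 (SE 0.07, edgeR adjusted p = 2.93e-08), a value at the threshold that was 0.99 without KO replicate 3 and 0.94 without M/M replicate 2. *Gss*, among the lower genes at −0.11 (edgeR adjusted p = 0.0220), turned to 0.35 with library size only, and its call was lost with the exact test, no filter, only the libraries compared, or without KO replicate 3, M/M replicate 2 or M/M replicate 3 (adjusted p from 0.0606 to 0.151). The other 3 higher genes were *Gsr* (0.70), *Gstp1* (0.54) and *Gsta4* (0.80). The *Gsta4* libraries of these genotypes overlapped, and its call was lost on leaving out any of 5 single libraries, with adjusted p from edgeR up to 0.115.

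The mu-class genes were read with their neighbours on chromosome 3, where the cluster runs from *Gstm5* to *Gstm4*. Besides the 3 genes above, *Gstm7* and *Gstm6* passed the filter, and *Gstm3* and *Gstm4* did not. *Gstm7* went from 21.8 ± 1.03 CPM in WT to 13.0 ± 0.0816 in I/M and 9.51 ± 0.143 in M/M, and *Gstm6* from 14.4 ± 0.474 to 7.46 ± 0.543 and 5.66 ± 0.292 (SD, n = 3). In M/M lenses *Gstm7* fell by 1.20 on the log2 scale (SE 0.05, edgeR adjusted p = 1.54e-10) and *Gstm6* by 1.35 (SE 0.06, edgeR adjusted p = 1.01e-09). All 5 tested genes of the cluster were thus lower in both mutants with TMM factors, and none passed in KO (edgeR adjusted p = 0.23 or higher). With library size only, *Gstm5* passed in neither mutant (−0.09 in M/M and −0.10 in I/M, edgeR adjusted p = 0.257 and 0.254). Along the chromosome the log2 fold change in M/M lenses went from −0.60 at *Gstm5* through −1.20 and −1.35 at *Gstm7* and *Gstm6* to −3.74 at *Gstm2* and −2.66 at *Gstm1*. Beyond *Gstm1*, the untested *Gstm4* averaged 4.43 CPM in WT, 4.48 in KO, 3.65 in I/M and 3.15 in M/M libraries. Of the 100-base stretches of *Gstm1* transcripts, 5.86% occur in transcripts of other genes, and for *Gstm2* 0.357% do. The summed counts of *Gstm1* to *Gstm7* fell by 1.75 on the log2 scale in M/M and by 1.12 in I/M lenses.

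**Figure D4:**
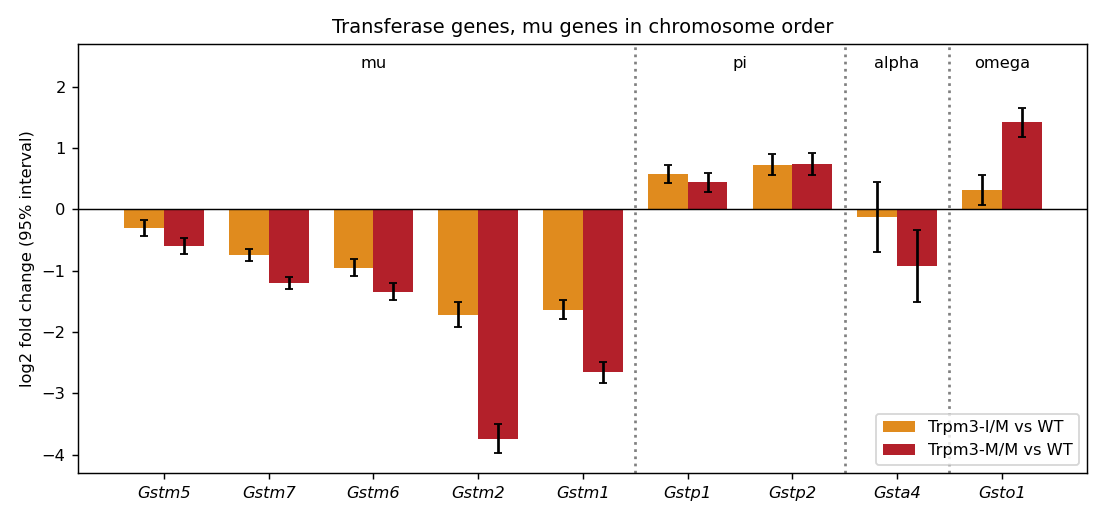
Bars give the log2 fold change against WT in I/M (orange) and M/M (red) lenses for the tested mu, pi, alpha and omega transferase genes named in the text, with 95% intervals, and the mu genes stand in their order along the chromosome. All mu bars point down, deepest for *Gstm2* at −3.74, and all pi bars point up.

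Of the 24 other transferase genes listed, 6 passed the filter. In M/M lenses 3 of them were lower and 2 higher (2 and 3 with library size only), with *Gstm6* and *Gstm7* among the lower. Over all tested genes 31.4% were called in each direction, or 82% higher and 5.51% lower with library size only, and the counts of this and the following lists are to be read against these shares. *Gstp2*, next to *Gstp1* on chromosome 19, rose from 33.5 ± 1.67 CPM in WT to 55.5 ± 5.59 in I/M and 55.9 ± 4.97 in M/M (SD, n = 3), by 0.73 and 0.74 on the log2 scale (edgeR adjusted p = 1.3e-05 and 2.85e-06). *Gsto1*, an omega-class enzyme that reduces dehydroascorbate, rose from 5.53 ± 0.332 to 14.8 ± 2.52 CPM in M/M (log2 1.42, SE 0.11, edgeR adjusted p = 1.03e-07).

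Genes that supply precursors or break glutathione down gave 9 tested of 22 listed, with 2 higher and 3 lower in M/M (7 and 1 with library size only), near the shares over all genes. *Ggct*, the cyclotransferase that opens gamma-glutamyl amino acids, fell from 141 ± 13.4 to 45.5 ± 7.86 CPM in M/M (log2 −1.63, SE 0.11, edgeR adjusted p = 4.2e-08). *Anpep*, an aminopeptidase that can split cysteinylglycine, rose from 1.85 ± 0.472 CPM in WT to 10.9 ± 0.511 in I/M and 10.5 ± 1.36 in M/M (log2 2.55 and 2.49, edgeR adjusted p = 2.97e-08 and 5.54e-09), and it passed the filter through the I/M and M/M libraries alone, where it is high. *Slc3a2*, the heavy chain of the cystine transporter, was the most abundant of the list at 235 ± 7.31 CPM in WT and did not pass in M/M (−0.08, edgeR adjusted p = 0.124, and 0.43 with library size only). *Slc7a11* was, with *Anpep*, 1 of the 2 higher genes of the list, at 0.70 on the log2 scale in M/M (edgeR adjusted p = 2.5e-05). In I/M lenses *Slc7a11* rose by 0.30 (edgeR adjusted p = 0.0292).

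The 10 listed genes that supply NADPH were all tested, and 3 were lower and 1 higher in M/M (1 and 8 with library size only), beside 31.4% of all genes each way. *Tkt*, the transketolase of the pentose phosphate pathway, was the most abundant, and fell from 438 ± 17.4 to 264 ± 16.6 CPM (log2 −0.73, SE 0.05, edgeR adjusted p = 4.92e-08). Of the other peroxidases, glutaredoxins and glyoxalases, 4 of 11 tested were higher and 2 lower (10 and 0 with library size only), beside the same 31.4% each way. *Gpx4*, which reduces lipid hydroperoxides, rose by 0.50 on the log2 scale (SE 0.07, edgeR adjusted p = 3.66e-05), and *Gpx3*, a secreted peroxidase, rose from 1.24 ± 0.115 to 5.91 ± 1.40 CPM (log2 2.26, SE 0.17, edgeR adjusted p = 1.17e-07). *Gpx3* passed the filter through the M/M libraries alone, so it had to differ to be tested, and it counts among the 4.

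In the thioredoxin, catalase and superoxide dismutase list, 5 of 17 tested genes were higher and 4 lower (15 and 0 with library size only), where 31.4% of all genes were called each way. *Txnip*, which binds and inhibits thioredoxin, rose by 1.95 on the log2 scale in M/M and by 1.93 in I/M (edgeR adjusted p = 7.11e-05 and 0.000271), having passed the filter through these genotypes alone. *Msrb1* (log2 0.33 in M/M, edgeR adjusted p = 0.0162) passed the filter through the M/M libraries alone. Both had to differ to be tested, and both count among the 5. *Prdx1*, the most abundant of the list, did not pass (0.03, edgeR adjusted p = 0.576, with library size only 0.54). Of 4 tested exporters of glutathione conjugates 3 were higher (4 with library size only), and *Abcc1*, the most abundant of these, did not pass (0.09, edgeR adjusted p = 0.268).

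The list of NRF2 pathway regulators and targets had 6 of 13 tested genes higher and 3 lower in M/M (12 and 1 with library size only), beside 31.4% of all genes each way, and its median log2 fold change was 0.15. *Sqstm1*, the autophagy receptor that binds KEAP1, rose from 140 ± 14.2 CPM in WT to 281 ± 20.5 in I/M and 369 ± 28.9 in M/M (log2 1.01 and 1.40, edgeR adjusted p = 4.95e-07 and 5.07e-09). *Ephx1*, the microsomal epoxide hydrolase, rose from 4.92 ± 0.347 to 15.4 ± 1.60 CPM in M/M (log2 1.64, SE 0.10, edgeR adjusted p = 1.07e-08), but passed the filter through the I/M and M/M libraries alone. The same held for *Mafk* (log2 0.55 in M/M, edgeR adjusted p = 0.000663). *Ephx1* and *Mafk* thus entered the test through the genotypes where they are high, and both count among the 6 and in the median. *Ftl1*, the ferritin light chain, rose by 0.74 (SE 0.05, edgeR adjusted p = 3.9e-08). *Hmox1*, the inducible heme oxygenase, fell from 1188 ± 63.8 to 587 ± 156 CPM (log2 −1.02, SE 0.14, edgeR adjusted p = 3.68e-05). In KO lenses, across these 7 lists, 1 gene of the precursor list was higher and 1 of the thioredoxin list lower, and 0 were called in the other 5 lists. These KO counts stand beside 2.16% of all tested genes higher and 2.2% lower in KO.

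For *Gstm2*, *Gstm1*, *Gsta4* and *Gclm*, the genes called at 2-fold or more against WT, the 3 tested genes with the most similar log2 CPM across the 12 libraries were found by Pearson's r, given as a description since the libraries fall into 4 genotypes and share their scaling. *Gstm2* was nearest to *Cpz* (r = 0.997), *St8sia2* (0.996) and *Slc38a3* (0.993), which is among the lens epithelium markers above. *Gstm1* was nearest to *Camk1d* (0.995), *Gstm7* (0.994) and *Nup210* (0.994). The fall in M/M was smaller in each of these 6 genes than in the transferase it tracked, from −1.20 for *Gstm7* to −2.36 for *St8sia2*. *Gclm* was nearest to *Stat3* (0.990), *Tmem183a* (0.989) and *Itpripl2* (0.989), whose log2 fold changes in M/M were 1.48, 0.40 and 4.01. *Gsta4* had less similar nearest genes, *Zfp949* (0.919), *Serpina3h* (0.915) and *Tmem260* (0.913), all of them lowest in KO. *Serpina3h* had 0 counts in all 3 KO libraries, which allows up to 3 counts in each, and averaged 14.8 CPM in WT.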

How the data were processed

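Lens RNA was poly-A selected, made into TruSeq libraries and sequenced. The authors aligned and quantified the reads with DRAGEN against the Ensembl mouse assembly (mm10) and deposited an estimated count of each gene in each library, unnormalized, of which 88.4% were whole numbers. Whether the counting used strand is not given in the sources used here. The authors' own edgeR table, which holds their fold changes and p-values, was not used. The 168 identifiers listed more than once were used once. Where a symbol had several identifiers, the one with most counts was used.

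Estimated counts were rounded, although the tests had been planned for whole counts. Genes reaching a CPM of 5 in 3 or more of the 12 libraries were fitted with edgeR 4.0.16 (R 4.3.3) in 1 quasi-likelihood fit on genotype with TMM factors, with Benjamini–Hochberg adjustment in each comparison. The fit was tested on simulated data. Standard errors come from the fold change and the F statistic. Ratios were compared by two-sided exact permutation tests in scipy 1.17.1. Log2 CPM for similar patterns used a prior count of 2. Shared sequence was measured as identical 100-base stretches among GENCODE transcripts, and coordinates are GRCm38.

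The genes and all lists were chosen with earlier results of these data known. Named were the 10 genes, *Trpm3*, every pathway-list gene called at both thresholds (adjusted p of at most 0.05, at least 2-fold) against WT, the most abundant gene of each list, and the 3 nearest patterns of each called gene. *Slc7a11*, *Mafk* and *Msrb1* were named outside this rule. Libraries of a genotype differed by more than sampling noise, with a chi-square of 6.06 or more per gene, and were kept as separate samples. Alternatives were library size only, TMM without crystallin genes, upper-quartile and RLE scaling, DESeq2 1.42.0, edgeR's exact test, glmTreat, other filters, only the libraries compared, a replicate block, summed gene families and each library left out.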

Additional observations from a re-analysis of the deposited data

How the results depend on the processing

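The fold changes of *Gstm1*, *Gstm2* and *Gclm* kept their direction and their side of an adjusted p of 0.05 in all 5 comparisons under every alternative run for single genes, which leaves out glmTreat and, for *Gstm2* and *Gclm*, summed families. With TMM factors without crystallin genes, upper-quartile scaling and a CPM of at least 1, all 15 counts and all 50 fold changes did so. Library size only moved most: in M/M against WT 5 genes were higher and 2 lower, in I/M against WT 4 and 2, in M/M against I/M 4 and 2 with 1 at 2-fold, and in M/M against KO 2 were lower and 5 passed 2-fold. It reversed *Gss* and *Gpx1* in M/M against WT (0.35 and 0.45) and against KO (0.35 and 0.44), *Gsta4* and *Gsr* in I/M against WT (0.068 and 0.15), *Gstm5*, *Gss* and *Gpx1* in KO against WT (0.026, 0.0053 and 0.0094), and *Gstm5*, *Gstp1*, *Gclc*, *Gss* and *Gpx1* between the mutants (0.010, 0.17, 0.18, 0.11 and 0.16). This scaling moved the median of all genes by 0.50, 0.46, 0.20, 0.05 and 0.31 in these comparisons in the order given. With glmTreat, 0 genes were called in KO and 1 between the mutants. With only the libraries compared, 0 were called and 1 was lower in KO, since *Gsta4* was not tested there. Between the mutants 2 genes were higher with RLE factors, DESeq2, the exact test or no filter, *Gsr* joining *Gclm*.

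Leaving out 1 library gave 3 to 4 genes called at 2-fold in M/M, 2 in I/M and 1 in KO against WT, 1 to 2 between the mutants (1 without I/M replicate 1 or M/M replicate 1) and 2 to 4 against KO. Past the adjusted p alone, the lower genes numbered 1 to 2 in KO (1 without KO replicate 2), and the higher genes between the mutants 1 to 2 (2 without I/M replicate 1 or M/M replicate 3). It reversed values near 0: *Gclc* and *Gstm5* in KO (−0.060 to 0.147 and −0.047 to 0.027), *Gsr* and *Gsta4* in I/M (−0.151 to 0.050 and −0.351 to 0.181) and *Gpx1* in M/M against KO (−0.051 to 0.021). Same-numbered libraries were not shown to be paired (correlation of deviations −0.264 to 0.149 over 18 pairs, with 2 of 12 libraries nearest to their own number), and a replicate block left 3 genes called in M/M, 2 in I/M and 1 in KO and changed no call. Summing *Gpx1* with its pseudogenes was not run, as no such symbol was found in the table. The cause of these changes was not tested.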
